A study of Mus musculus with 10 samples.

Results

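The 10 transcriptomes of inspiratory preBötC neurons were divided by the transmitter genes they contained, and a glutamatergic class of 4 libraries was compared with an inhibitory class of 3. Libraries were chosen by measured values: a library was called glutamatergic with Slc17a6 at 50 FPKM or more and inhibitory with Gad1 at 30 FPKM or more and Slc17a6 under 1 FPKM. FPKM is the number of fragments per kilobase of gene, scaled to the total of fragments counted on genes. Samples 5, 6, 7 and 8 met the first rule and samples 1, 3 and 10 the second. Samples 2, 4 and 9 met neither and were left out of the comparison, so that 7 of 10 libraries entered it.

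Each library was made from the cytoplasm of 1 neuron drawn into a patch pipette, so a library is 1 cell, and no label names the animal it came from. Samples 5, 6 and 7 were Type-1 neurons from Dbx1;Ai148 mice (sample 5 at P0, samples 6 and 7 at P3), and sample 8 was a neuron of Unknown type from a CD-1 wild-type mouse at P0. Of the inhibitory libraries, sample 1 was a Type-2 neuron from a Dbx1;Ai148 mouse at P0, while the other two, samples 3 and 10, were of Unknown type from CD-1 wild-type animals at P0 and P1. In Dbx1;Ai148 mice a Cre recombinase expressed from Dbx1 turns on the calcium indicator GCaMP6f, which marks cells whose precursors expressed Dbx1, and rhythmic fluorescence was used to pick these neurons. CD-1 neurons were picked by activity in time with inspiratory motor output. All animals were neonates. Mouse lines are given as in the sample labels, and since the legends of the study assign some samples to the other line, each statement on mouse line rests on those labels. Class, mouse line, age and type overlap in part, since 3 of 4 glutamatergic and 1 of 3 inhibitory libraries came from Dbx1;Ai148 mice.

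The preBötC is a region of the ventral medulla that generates the rhythm of inspiration. Glutamatergic interneurons derived from Dbx1-expressing precursors are known to be required for that rhythm, whereas glycinergic and GABAergic interneurons of the same region shape its pattern and its response to input. A neuron releases glutamate by loading it into vesicles with a vesicular glutamate transporter, of which Slc17a6 encodes the main brainstem form (VGLUT2). An inhibitory neuron makes GABA with the glutamate decarboxylases encoded by Gad1 and Gad2, or takes glycine up with the transporter GlyT2 encoded by Slc6a5, and loads either one into vesicles with the transporter encoded by Slc32a1 (VIAAT).

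The promoter windows of Slc17a6 and Gad1, which divided the libraries, and of Gad2 are shown to place these genes in the genome. They are RefSeq sequences of GRCm38.p6, all on the plus strand, and hold the bases before the gene's start, up to 250, without those that GENCODE M21 places in an exon of the gene. RefSeq and GENCODE place the starts of all 3 genes at different bases, and the Gad1 window lies inside the GENCODE span. Slc17a6 is at chr7:51622006-51671119, Gad1 at chr2:70553072-70602014 and Gad2 at chr2:22622205-22693874 in GENCODE M21. Capitals mark a GC box (GGGCGG on either strand).
Slc17a6, chr7:51621580-51621829: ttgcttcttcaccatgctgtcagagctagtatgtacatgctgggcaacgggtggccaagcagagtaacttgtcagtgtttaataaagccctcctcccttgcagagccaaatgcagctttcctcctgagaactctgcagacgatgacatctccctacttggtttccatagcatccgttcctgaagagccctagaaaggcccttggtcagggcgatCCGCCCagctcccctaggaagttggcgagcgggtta
Gad1, chr2:70561879-70562041: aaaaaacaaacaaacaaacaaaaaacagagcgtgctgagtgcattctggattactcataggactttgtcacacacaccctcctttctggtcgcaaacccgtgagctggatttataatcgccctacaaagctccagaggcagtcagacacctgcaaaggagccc
Gad2, chr2:22622077-22622204: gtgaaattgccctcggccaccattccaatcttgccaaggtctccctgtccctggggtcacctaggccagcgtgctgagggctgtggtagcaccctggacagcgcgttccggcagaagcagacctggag
The letters GGGCGG occur once in the 250 bases of Slc17a6, and 32.7% of 27025 promoter windows of that length hold them. Neither CAGCTG, an E-box, nor TAATTA, a core bound by homeodomain proteins, was found on either strand of the 3 windows, against 12.9% and 4.98% of all windows of 250 bases. The windows of Gad1 and Gad2 were cut to 163 and 128 bases, so no share of equal length is given for them.

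The genes that defined the classes were far apart in the chosen libraries, which is a consequence of the rule, so no test of it is given. Slc17a6 was at 101.4, 157.9, 155.5 and 230.4 FPKM in samples 5, 6, 7 and 8 and at 0.26, 0.149 and 0.0303 FPKM in samples 1, 3 and 10. The glutamatergic library nearest to its limit of 50 FPKM was sample 5, and the highest library outside the class was sample 2 at 1.85 FPKM. No library lay between these values. Gad1 was at 71.8, 37.2 and 92.0 FPKM in samples 1, 3 and 10, and at 0.0179, 0, 0.194 and 8.28 FPKM in samples 5, 6, 7 and 8. Sample 3 was the inhibitory library closest to the limit of 30 FPKM, and sample 8 the highest library below it.

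The remaining transmitter genes differed among libraries of the same class. Gad2 was at 43.5, 22.9 and 34.2 FPKM in the inhibitory samples 1, 3 and 10, at 5.14 FPKM in the glutamatergic sample 7 and at 0, 0.0054 and 0.0128 FPKM in samples 5, 6 and 8. For Slc6a5 the inhibitory values were 145.8, 0.0401 and 8.6 FPKM in the same order. All inhibitory libraries therefore held both decarboxylase messages, while the glycine transporter message was high in sample 1, lower in sample 10 and at 9 fragments in sample 3. Slc32a1 was at 0.0167, 0 and 0.375 FPKM in the inhibitory libraries, which is 1, 0 and 32 fragments, although inhibitory neurons need its product to fill vesicles. Its highest value was 5.95 FPKM, in sample 2, outside both classes. For Slc17a7 and Slc17a8, which encode VGLUT1 and VGLUT3, all 10 libraries were at 0 fragments. A count of 0 allows up to 3 fragments per library, a limit that covers counting error only.

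**Figure D1:**
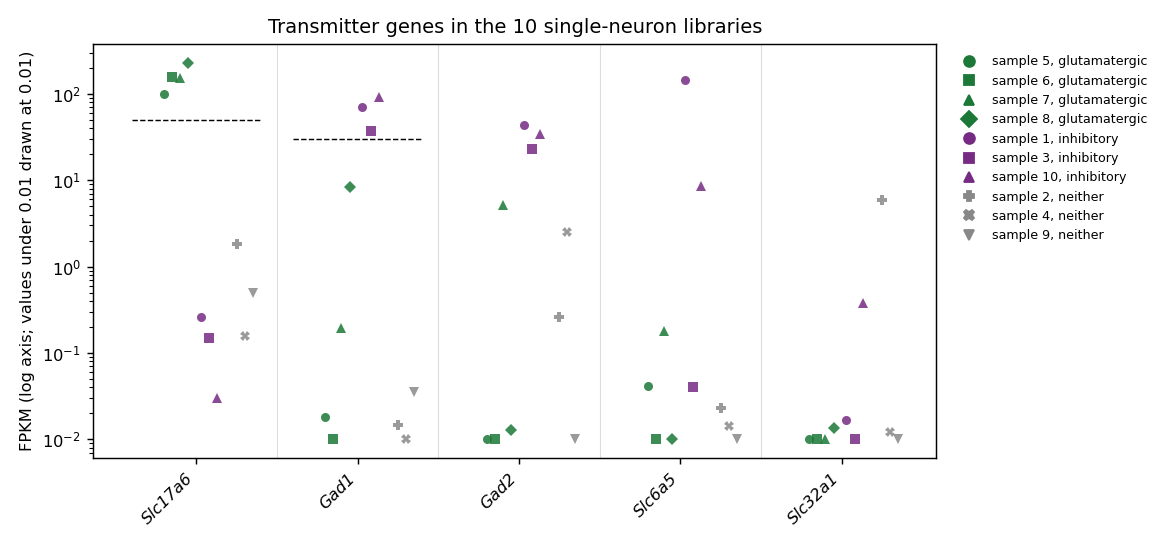
FPKM of 5 transmitter genes (log axis, values under 0.01 drawn at 0.01) in the 10 libraries, with 1 symbol per library, green for glutamatergic, purple for inhibitory and grey for the 3 libraries that met neither rule, and dashed lines at the limits of 50 FPKM for Slc17a6 and 30 FPKM for Gad1. Slc17a6 and Gad1 part the classes by construction, Gad2 is at 22.9 FPKM or more in the 3 inhibitory libraries, and Slc6a5 and Slc32a1 differ among them.

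Both inhibitory genes seen in glutamatergic libraries were well above the lowest values in the series. The 8.28 FPKM of Gad1 in sample 8 came from 1681 fragments, and the 5.14 FPKM of Gad2 in sample 7 from 775 fragments. In sample 7, Gad1 at 0.194 FPKM was 0.211% of the value of sample 10, and Slc6a5 at 0.178 FPKM was 0.122% of that of sample 1. Sample 7 also held fragments of 25 of the 31 genes that reached 100 FPKM in sample 1 and stayed under 1 FPKM elsewhere, at a median of 0.115% of the level in sample 1. Samples 2, 3, 5 and 8 held fragments of 19, 15, 11 and 2 of these 31 genes. Of 26 such genes of sample 4, samples 2, 3, 6 and 8 held 23, 17, 24 and 23, so this was not particular to sample 7. Values this small are given as listed, and their source was not tested.

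The libraries were sequenced to similar depth but not equally rich. Between 21392146 and 36629393 fragments per library were counted on genes, with 25681679 to 36629393 in the glutamatergic class and 21392146 to 31150630 in the inhibitory class. Genes at 1 FPKM or more numbered 9223, 8817, 8720 and 9307 in samples 5, 6, 7 and 8 and 5065, 5055 and 9222 in samples 1, 3 and 10. Samples 1 and 3 stood apart from the other 5 libraries, and they belong to the set of 4 samples that the study describes as having the least cDNA and a second peak of low genes. Genes with a fragment ran from 12973 to 13738 in the glutamatergic class and from 10663 to 12225 in the inhibitory class. The classes did not overlap in this count (two-sided exact permutation test, p = 0.0571, the smallest that 4 against 3 libraries allow), and the value adjusted over 8 library measures by the Benjamini-Hochberg method was 0.457. Sample 10, the inhibitory library as rich as the glutamatergic ones, is therefore named beside the results, and counts are also given without samples 1 and 3.

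Markers of other cells overlapped between the classes. All 12 neuronal markers, such as Tubb3, Uchl1 and Gap43, were at 1 FPKM or more in samples 3, 5, 6 and 8, 11 of 12 in samples 7 and 10 and 9 of 12 in sample 1, where Tubb3 was at 23.0 FPKM against 651.6 FPKM or more in the other 6 libraries. The summed FPKM of 10 astrocyte markers ran from 4.13 to 1787 in the glutamatergic class and from 260.5 to 5522 in the inhibitory class, with the highest values in samples 8 and 3. The summed FPKM of 8 microglial markers ran from 1.08 to 494.6 and from 113.2 to 369.6, and that of 8 oligodendrocyte markers reached 315.9 in sample 3. Each of the 8 endothelial and mural markers was under 1 FPKM in the 7 libraries. The sums had wide ranges in both classes, and 4 against 3 libraries cannot give a p under 0.0571 (two-sided exact permutation tests, p = 0.343, 0.343, 0.686 and 0.8 for neurons, astrocytes, microglia and oligodendrocytes, with Benjamini-Hochberg values of 0.64 or more). The part of such RNA in the differences described below was not tested.

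The comparison asked which other genes differ between neurons of both transmitter classes. No gene passed the test. Among the 10523 genes tested, the 7 transmitter genes excluded, edgeR called 0 genes higher in the glutamatergic class (0%) and 0 higher in the inhibitory class (0%) at an adjusted p of 0.05, and the smallest adjusted p was 0.503. At an unadjusted p under 0.05 there were 693 genes, 591 of them higher in the glutamatergic class (85.3%, against 62.5% with RLE size factors and 94.0% with library totals, which moved the median log2 difference of all genes from -0.03 to -0.57 and 0.19). DESeq2 called 555 and 54 genes at the same adjusted threshold, and limma on log2(FPKM + 1) called 0 and 0. The common dispersion was 2.85, a wide spread between neurons of 1 class. Since no label says that the neurons came from separate animals, the p-values measure only the spread between these 7 libraries, which may be technical, and a p above the threshold does not show that a gene did not differ.

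Another description of the same data was to count genes whose 2 sets of libraries did not overlap. A gene was called separated when every library of the higher class was at 1 FPKM or more and above every library of the other class. By this count 474 genes were separated with higher values in the glutamatergic class (4.5% of genes tested) and 99 with higher values in the inhibitory class (0.941%). Of the 474, 161 were under 1 FPKM in each inhibitory library, whereas 2 of the 99, Phlda1 and Gm9791, named here after their values were seen, were under 1 FPKM in each glutamatergic library. The lowest glutamatergic value was at least 10 times the highest inhibitory value in 126 of the 474 genes, and in 0 of the 99 was the gap in the other direction that large. In 252 of the 474 and 87 of the 99 the gap was under 2-fold.

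These counts are set beside how rich each library was. Of the 474 genes, 21.5% were at 1 FPKM or more in sample 1, 20.25% in sample 3 and 61.2% in sample 10. The 474 were picked for lying lower in these libraries, so low shares follow in part from that choice. Of all genes tested, the shares at that level were 43.6%, 44.8% and 77.0% in the same libraries and between 73.5% and 78.7% in the glutamatergic libraries. Without samples 1 and 3, when sample 10 alone stood for the inhibitory class, 1210 genes lay higher in the 4 glutamatergic libraries and 2233 higher in sample 10. The limit of 1 FPKM then applied to 4 libraries on one side and to 1 on the other, and in the edgeR fit of the same 5 libraries 507 genes were higher in the glutamatergic and 259 higher in the inhibitory class at an unadjusted p under 0.05. Without sample 10 the counts were 1540 and 411. They were 760 and 602 without sample 1, and 728 and 436 without sample 3. What part library richness had in these counts was not tested. Within mouse lines, 3517 genes were higher in samples 5, 6 and 7 than in sample 1 and 2374 lower, and 3354 were higher in sample 8 than in samples 3 and 10 and 1785 lower. With 1 library on 1 side these are values without a test.

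**Figure D2:**
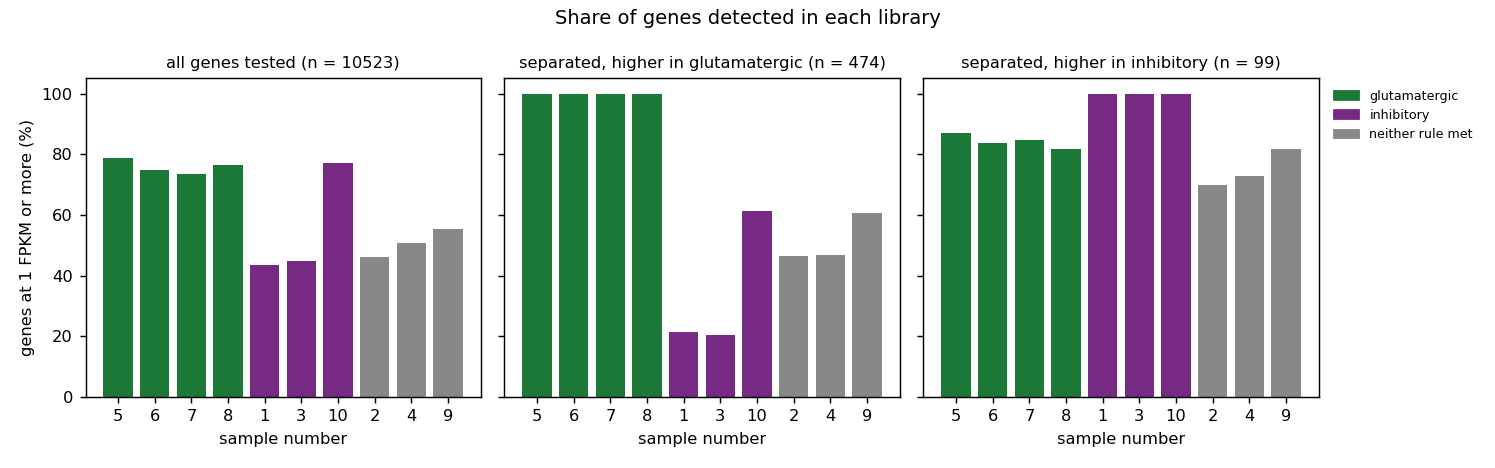
Share of genes at 1 FPKM or more in each library (%), for the 10523 genes tested (left), the 474 separated genes higher in the glutamatergic class (middle) and the 99 higher in the inhibitory class (right), with bars coloured by class. Samples 1 and 3 detect 43.6% and 44.8% of all genes against 73.5% or more in the other 5 compared libraries, and the bars at 100% follow from how the sets were formed.

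Likeness over the whole transcriptome overlapped within and between classes. The Spearman correlation of log2(FPKM + 1) was taken across 10523 genes, which are not independent, and is a description that also reflects how rich each library was. It was 0.543 to 0.654 for the 6 pairs of glutamatergic libraries. It was 0.341 to 0.467 for the 3 inhibitory pairs and 0.377 to 0.667 for the 12 pairs between classes. The highest value of all 21 pairs joined samples 5 and 10, 1 from each class.

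The genes named next are those with the smallest unadjusted p among separated protein-coding genes. All missed the adjusted threshold. On the glutamatergic side, Cadm1, which encodes a synaptic adhesion molecule of the immunoglobulin family, was at 22.1, 36.0, 35.2 and 36.2 FPKM in samples 5, 6, 7 and 8 and at 0.0475, 0.0435 and 0.00278 FPKM in samples 1, 3 and 10. The inhibitory values are 12, 16 and 1 fragments. Its log2 difference was 9.47 ± 1.59 (SE, edgeR adjusted p = 0.503). Each SE given beside an edgeR log2 difference was worked back from the F statistic of the test and is approximate. Tmem255a, a transmembrane protein gene, was at 65.4, 66.7, 63.0 and 35.5 FPKM against 0.0625, 0.05 and 0.0073 FPKM, a log2 difference of 9.96 ± 1.71 (SE, edgeR adjusted p = 0.503).

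A further 3 genes were high in each glutamatergic neuron and near 0 in each inhibitory neuron. Tmem163, which encodes a zinc transporter of synaptic vesicles and other membranes, was at 71.0, 56.1, 45 and 26.5 FPKM against 0.0871, 0.0374 and 0.007635 FPKM. Sv2b, a synaptic vesicle glycoprotein gene, was at 24.2, 23.7, 16.8 and 5.89 FPKM against 0.0223, 0.0115 and 0.00782 FPKM. Ust, which encodes a sulfotransferase that modifies chondroitin and dermatan sulfate, was at 18.2, 22.1, 18.4 and 22.1 FPKM against 0.0101, 0.0278 and 0.0142 FPKM. Their edgeR adjusted p was 0.639 in each case. Its relatives Sv2a and Sv2c, named after their values were seen, were not separated, and Sv2a was at 16.2, 63.5, 21.6 and 9.35 FPKM against 30.8, 0.0831 and 12.0 FPKM.

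Gda, the gene of guanine deaminase, completed the 6, but it varied within the class. It was at 46.3, 24.5, 1.22 and 12.8 FPKM in samples 5, 6, 7 and 8 and had 0, 2 and 0 fragments in samples 1, 3 and 10. Its lowest glutamatergic value, in sample 7, lay near the limit of 1 FPKM. In sample 10, Cadm1, Tmem255a and Tmem163 each had 1 fragment and Sv2b and Ust 2 each. That sample 10 lies below the glutamatergic libraries is part of how these genes were picked.

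On the inhibitory side the gaps were smaller. Ncan, which encodes neurocan, a chondroitin sulfate proteoglycan of the extracellular matrix, was at 36.6, 18.9 and 1.31 FPKM in samples 1, 3 and 10 and at 0.747, 0.212, 0.0595 and 1.06 FPKM in samples 5, 6, 7 and 8. Samples 10 and 8 lay close to each other. Its log2 difference was -5.75 ± 1.80 (SE, edgeR adjusted p = 0.639), and neurocan is made by astrocytes as well as neurons. Cdk5rap3, the gene of a CDK5-binding protein of the UFM1 conjugation machinery, was at 96.6, 38.2 and 27.2 FPKM against 7.14, 0.00833, 1.00 and 0.237 FPKM.

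The other 4 leading genes on this side encode proteins of mitochondria and of ribosome assembly and were present in each of the 7 neurons. Timm50, a subunit of the mitochondrial import machinery, was at 173.7, 60.3 and 86.6 FPKM against 27.2, 18.6, 21.5 and 25.15 FPKM. Pdhx, which binds the E3 component of pyruvate dehydrogenase, was at 128.6, 113.3 and 102.2 FPKM against 47.2, 21.3, 55.9 and 37.1 FPKM. Acadvl, an enzyme of fatty acid oxidation, was at 216.0, 37.5 and 21.7 FPKM against 13.4, 14.1, 9.34 and 18.5 FPKM, and Mrto4, a ribosome assembly factor, at 186.3, 17.7 and 17.6 FPKM against 11.2, 11.3, 5.67 and 4.86 FPKM. In both of these genes sample 1 stood far above the other inhibitory libraries. The log2 differences of the 4 ran from -3.73 to -1.90 (edgeR adjusted p = 0.639 each).

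**Figure D3:**
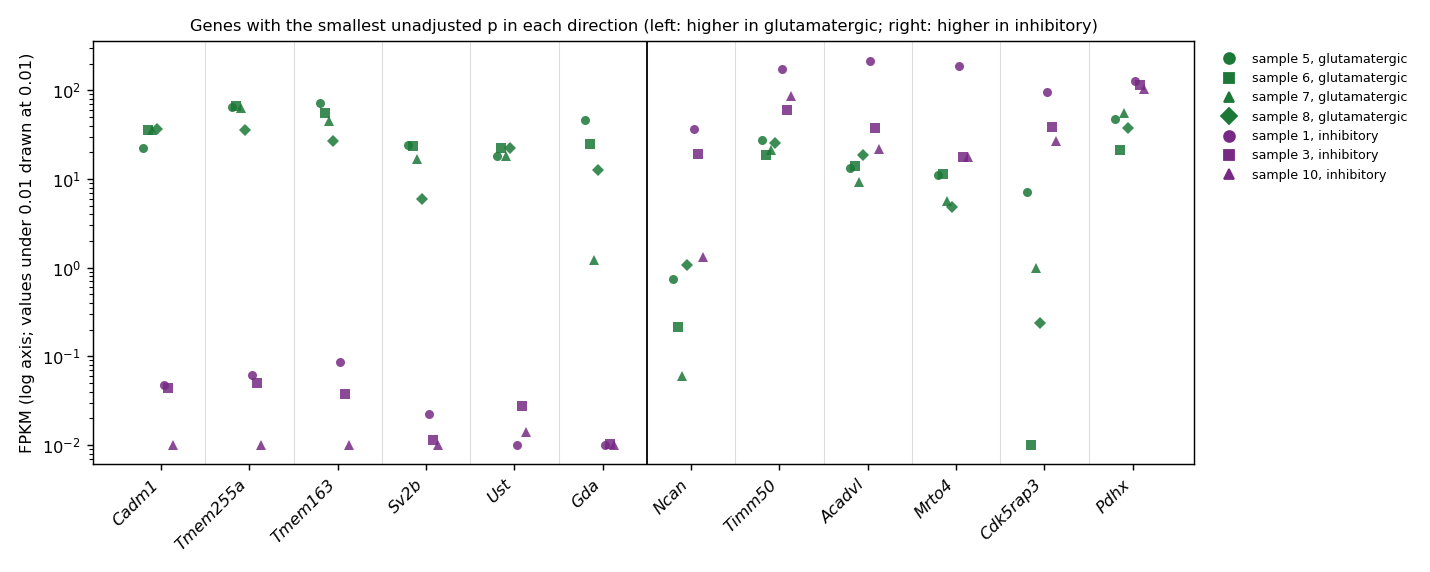
FPKM (log axis) of the 12 genes with the smallest unadjusted p among separated protein-coding genes, 6 per direction, with 1 symbol per library, green for glutamatergic and purple for inhibitory. Genes on the left fall to under 0.1 FPKM in the 3 inhibitory libraries, and genes on the right, apart from Ncan and Cdk5rap3, are at 4.86 FPKM or more in all 7.

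Synaptic vesicle genes were read next, as a list of 30 genes of the release machinery that all neurons use. All 30 were tested and 0 were called. Of these, 3 (Sv2b, Syp and Syt1) were separated, each higher in the glutamatergic class, and 0 in the other direction, where 4.5% and 0.941% of all genes tested were separated. Syt1, the calcium sensor for fast release, was at 53.2, 50.3, 62.5 and 83.6 FPKM in samples 5, 6, 7 and 8 and at 4.15, 12.9 and 4.76 FPKM in samples 1, 3 and 10 (log2 difference 2.69 ± 0.85, SE, edgeR adjusted p = 0.639). Syp, which encodes the vesicle protein synaptophysin, was at 74.1, 112.1, 56.3 and 74.1 FPKM against 12.9, 14.7 and 15.7 FPKM (2.11 ± 0.80, SE, edgeR adjusted p = 0.639). The list's median log2 difference was 0.62, beside -0.03 over all genes tested. Syp and Syt1, like Chga, Kcnk9, Scn3a and Cacna1b below, were named because they were separated, after their values were seen. Snap25, a fusion protein of the plasma membrane, overlapped at 208.9 to 482.6 FPKM against 129.8, 120.8 and 442.4 FPKM, with sample 10 among the glutamatergic libraries.

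Neuropeptide genes came next. Penk, the precursor of enkephalins, was at 492.5, 799.3, 290.4 and 469.7 FPKM in samples 5, 6, 7 and 8 and at 0.343, 81.8 and 55.2 FPKM in samples 1, 3 and 10. The lowest glutamatergic library, sample 7, lay well above the highest inhibitory library, sample 3. The log2 difference was 3.21 ± 1.30 (SE, edgeR adjusted p = 0.661). Scg2 and Chga, granins that are packed into dense-core vesicles with peptides, were separated in the same direction. Scg2 was at 107.8, 108.6, 137.4 and 112.2 FPKM against 9.98, 0.102 and 13.8 FPKM, and Chga at 58.6, 46.7, 147.6 and 39.5 FPKM against 0.2035, 22.6 and 29.2 FPKM. Of 26 peptide genes, 9 passed the low-count filter, 0 were called and 3 were separated, all higher in the glutamatergic class, where 4.5% of all genes tested were.

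Other peptides overlapped between the classes or were seen in few neurons. Sst, the precursor of somatostatin and a marker of preBötC neurons, was at 374.6, 28.0 and 0 FPKM in samples 1, 3 and 10 and at 10.8, 41.8, 0.378 and 22.8 FPKM in samples 5, 6, 7 and 8, with overlapping classes. Pdyn, the precursor of dynorphins, reached 245.4 FPKM in sample 10, and no other compared library was above 0.229 FPKM. Tac1, which encodes substance P, was at 28.6, 30.1 and 9.39 FPKM in samples 1, 6 and 7, with at most 0.0775 FPKM in the remaining 4. Pdyn and Tac1 were named after their values were seen.

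Receptors for these peptides were mostly low. Of 18 peptide and opioid receptor genes, 3 were tested. Among these, Oprl1, the nociceptin receptor gene, was the 1 that was separated, where 4.5% of all genes tested were separated in that direction. It was at 45.2, 17.8, 40.2 and 25.9 FPKM against 0.09965, 0.0171 and 8.77 FPKM (edgeR adjusted p = 0.998). Tacr1, the receptor for substance P and a preBötC marker, was at 14.0 and 33.0 FPKM in samples 7 and 8 and at most at 0.0294 FPKM in the other 5. Reln, the gene of reelin, was at 1.10, 15.8, 8.05 and 4.80 FPKM against 5.56, 0.00947 and 0.164 FPKM, so the classes overlapped through sample 1 (log2 difference 1.34 ± 1.81, SE, edgeR adjusted p = 0.998). Cdh9, an adhesion gene used as a preBötC marker, was highest in sample 1 at 172.4 FPKM and was at 3.34 to 69.7 FPKM in the glutamatergic class and at 0.0726 and 0 FPKM in samples 3 and 10.

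Transcription factors of interneuron lineages were mostly at or near 0. Dbx1 had 0 fragments in each library, which allows up to 3 per library. Of 19 excitatory lineage factors in the files 1 passed the low-count filter, and of 22 inhibitory lineage factors 4 did, of which Lhx5 was the 1 that was separated. Over all genes tested, 4.5% were separated with higher values in the glutamatergic class. Lhx5, a LIM-homeodomain gene entered in the list of inhibitory lineages, was at 22.7, 16.1, 14.2 and 12.1 FPKM in the glutamatergic samples 5, 6, 7 and 8 and at 0, 0.0119 and 0.451 FPKM in samples 1, 3 and 10 (log2 difference 6.80 ± 2.76, SE, edgeR adjusted p = 0.661). Lhx1, its closest relative, was at 30.9, 82.2, 2.48 and 0.508 FPKM against 2.39, 0.0158 and 2.95 FPKM, with overlap.

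Other factors were seen in part of a class. Evx2, a homeobox gene of excitatory V0 interneurons, which arise from Dbx1-expressing precursors, was at 1.89, 12.8 and 14.1 FPKM in samples 5, 6 and 7, the glutamatergic neurons from Dbx1;Ai148 mice, and at 0.126 FPKM in sample 8 from a CD-1 mouse (log2 difference 8.16 ± 3.22, SE, edgeR adjusted p = 0.652). Sample 1, the inhibitory neuron from a Dbx1;Ai148 mouse, had 0 fragments of Evx2. Sample 8 held Lhx3, a LIM-homeodomain gene of V2a interneurons and motoneurons, at 17.5 FPKM, and the other 6 libraries held 0 fragments. With 1 glutamatergic neuron from CD-1 mice, line and neuron cannot be told apart here.

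On the inhibitory side, Pax8 and En1 were shared by a pair of neurons. Pax8, a paired-box gene of inhibitory interneurons of the hindbrain and spinal cord, was at 36.8 and 34.1 FPKM in samples 1 and 10, at 0.0159 FPKM in sample 3 and at most at 0.0578 FPKM in the 4 glutamatergic libraries (log2 difference -10.2 ± 2.71, SE, edgeR adjusted p = 0.639). En1, which marks V1 inhibitory interneurons, was at 7.41 and 7.23 FPKM in the same samples and at most at 0.0148 FPKM in the other 5. Foxd3, also active in V1 interneurons, was at 11.3 FPKM in sample 10, with 0 fragments in the other 6. Samples 1 and 10 come from different mouse lines, and they are also the 2 inhibitory libraries with Slc6a5 at 8.6 FPKM or more. En1 and Foxd3 were named after their values were seen.

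Receptors for the inhibitory transmitters were read as 2 lists. Of 17 GABA-A receptor subunits, 10 were tested and 0 were called. Of 8 genes of glycine receptors and their scaffold, 5 were tested and 1 was separated, where 4.5% of all genes tested were in that direction. This was Glrb, the beta subunit that anchors the receptor at synapses, at 105.5, 97.55, 112.1 and 59.5 FPKM against 0.201, 0.124 and 20.9 FPKM (log2 difference 3.85 ± 1.60, SE, edgeR adjusted p = 0.681). Its scaffold gene Gphn (gephyrin) overlapped, at 23.2 to 49.3 FPKM against 17.9 to 57.7 FPKM.

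Gabbr2, a subunit of the metabotropic GABA-B receptor, was detected in all 7 neurons and separated by a small gap. It was the 1 separated gene among 5 tested genes of GABA-B receptors and GIRK channels, where 4.5% of all genes tested were separated in that direction. It was at 95.8, 39.4, 26.9 and 11.8 FPKM in samples 5, 6, 7 and 8 against 11.1, 8.52 and 10.3 FPKM in samples 1, 3 and 10 (log2 difference 1.76 ± 1.02, SE, edgeR adjusted p = 0.998). Sample 8 was within 1 FPKM of sample 1. The genes of GABA and glycine uptake and breakdown overlapped between the classes. Abat, which breaks GABA down, was at 41.2, 27.95, 21.8 and 12.3 FPKM against 33.9, 10.6 and 73.7 FPKM.

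Of the tested genes of glutamate receptors and glutamate metabolism, 0 were separated between the classes. Of 22 ionotropic receptor and accessory genes, 17 were tested, 0 were called and 0 were separated, with a median log2 difference of -0.01. Gria4, an AMPA receptor subunit, was at 29.3, 35.9, 57.3 and 55.6 FPKM in samples 5, 6, 7 and 8 and at 97.6, 0.1375 and 36.4 FPKM in samples 1, 3 and 10, low in sample 3 alone. Got1, an aminotransferase that interconverts glutamate and aspartate, was at 127.6 to 243.3 FPKM in the glutamatergic class and 94.65 to 242.2 FPKM in the inhibitory class (log2 difference 0.004 ± 0.635, SE, edgeR adjusted p = 1.00).

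Of ion channel genes, 0 were called. Of 29 potassium channel genes 21 were tested and 0 separated, with a median log2 difference of -0.54. A leak channel gene, a sodium channel gene and a calcium channel gene were separated, each higher in the glutamatergic class. They were among 10 tested genes of leak, hyperpolarization-activated and TRP channels taken as 1 list, 10 of sodium channels and 13 of calcium channels. Of all genes tested, 4.5% were separated in that direction and 0.941% in the other, so 1 gene or 0 in lists of this size is near those shares. The medians of these lists were 2.23, 0.83 and -0.84. That of the mixed list was 5.77 without sample 10. The calcium channel median was 2.39 without sample 1 and 1.88 without sample 6. Kcnk9, the gene of the leak potassium channel TASK-3, was at 27.3, 9.34, 4.47 and 11.2 FPKM against 0.0304, 0 and 3.95 FPKM. Scn3a, a sodium channel of developing neurons, was at 7.505, 25.6, 11.2 and 20.5 FPKM against 6.86, 0.0151 and 6.85 FPKM, and Cacna1b, the N-type calcium channel, at 12.4, 9.78, 15.6 and 5.75 FPKM against 5.20, 0.0226 and 0.0527 FPKM. In all 3 genes at least 1 inhibitory library was within 1 FPKM of the lowest glutamatergic library, and the edgeR adjusted p was 0.998 each.

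Cacna2d3, an auxiliary subunit of calcium channels, had the reverse pattern without being separated. It was at 86.0 and 11.9 FPKM in samples 1 and 10, at 0.0258 FPKM in sample 3 and at most at 0.107 FPKM in the glutamatergic class (log2 difference -10.3 ± 2.64, SE, edgeR adjusted p = 0.639). Kcna4, an A-type potassium channel gene, was at 4.23, 21.4 and 19.1 FPKM in samples 5, 6 and 7 and at most at 0.0484 FPKM in the other 4 compared libraries, among them the glutamatergic sample 8. Kcna4 was named after its values were seen (log2 difference 8.34 ± 3.30, SE, edgeR adjusted p = 0.652). Samples 5, 6 and 7 are the Type-1 neurons among the compared libraries, all from Dbx1;Ai148 mice, and the study used A-type current in calling that type. Class, type and mouse line cannot be told apart for this gene.

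**Figure D4:**
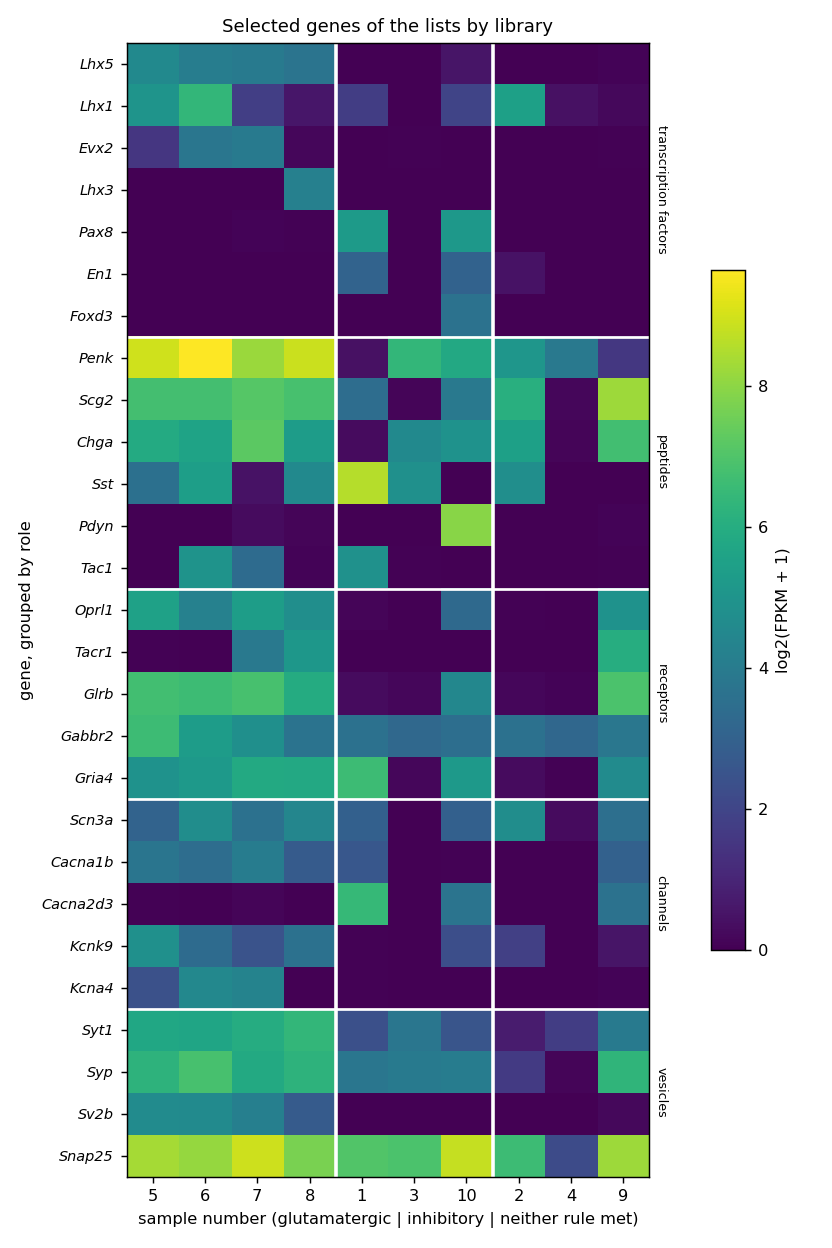
log2(FPKM + 1) of genes of the lists, grouped by role and picked after their values were seen, in the 10 libraries, with white lines between the glutamatergic, the inhibitory and the unclassed libraries. Lhx5 and Sv2b are brighter in samples 5 to 8 than in samples 1, 3 and 10, where both are dark. Penk is brightest in samples 5 to 8, still bright in samples 3 and 10 at 81.83 and 55.25 FPKM, and dark in sample 1. Pax8 and En1 appear in samples 1 and 10, and the columns of samples 1 and 3 are darker than that of sample 10.

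Over all lists, 227 genes other than transmitter genes were tested, 0 were called (0% of all genes tested in either direction), 14 were separated with higher values in the glutamatergic class and 0 in the other direction. All 14 had a positive log2 difference under each alternative setting and each library left out. They were picked for not overlapping, so the kept sign is largely fixed by that choice. The size moved widely, as for Penk between 2.52 and 9.97. The value of 9.97 is from the fit within Dbx1;Ai148 mice, where the median log2 difference of all genes tested was 6.01. Among all genes tested, 4.5% and 0.941% were separated in these directions. Fitted log2 differences of genes with a few fragments in 1 class, such as Cadm1, Pax8 or Cacna2d3, depend on the prior count, and so does the SE worked back from them.

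The remaining lists held 0 called genes, and their medians are set beside -0.03 over all genes tested. No direction is read from them, since 18 of the 24 lists with a median had the opposite sign under at least 1 alternative setting or with a library left out. The median log2 difference was -1.02 over 11 tested genes of glutamate metabolism and uptake, -0.60 over 6 of GABA and glycine uptake and breakdown (1.85 without sample 3), 0.67 over 5 of chloride transport and 0.19 over 4 metabotropic glutamate receptor genes. It was 1.26 for GABA-A receptors (6.60 without sample 10), 0.51 for glycine receptors and their scaffold, and 0.11 over 5 genes of GABA-B receptors and GIRK channels. The lists of peptide genes, peptide receptors, inhibitory lineage factors and preBötC markers had medians of 1.91, 1.08, 2.99 and -1.34, each over 9 genes or fewer. That of the preBötC markers was 6.51 without sample 1 and 11.7 without samples 1 and 3, and that of the inhibitory lineage factors -1.31 within CD-1 mice. Calcium-binding proteins had 0.19 over 9 genes, synaptic adhesion and guidance genes 0.52 over 16, immediate early genes 0.99 over 7 (5.28 without sample 3), and cholinergic and aminergic genes -2.23 over 2. Neuronal markers had 0.21 over 12 genes, astrocyte markers -2.58 over 8 (0.44 without sample 3, -5.51 without sample 8), microglial markers 0.32 over 7 (-2.17 without sample 8) and oligodendrocyte markers -3.63 over 3 (5.51 without sample 3, -6.97 without sample 5). In the list of sex-linked genes 1 was tested, at -2.32. No ependymal or erythroid marker was tested, and 2 of 6 reached 1 FPKM, in sample 5.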

How the data were processed

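Per the labels, RNA of single patched neurons was amplified with SMART-Seq v4 and sequenced as paired reads. The authors aligned the reads with STAR 2.7.7a to GRCm38 with Ensembl 102 genes, counted fragments with featureCounts, and deposited the fragment counts and FPKM values of 55367 genes with their lengths. The deposited FPKM equalled the count divided by gene length and library total (largest relative difference 3.3e-13). Counting options for overlapping or multiply mapped fragments are not given in the sources used here.

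Libraries were grouped by the rule on Slc17a6 and Gad1. Counts of the 7 libraries were tested with edgeR 4.0.16 (quasi-likelihood, TMM, filterByExpr, no covariate, R 4.3.3), with Benjamini-Hochberg adjustment over all genes in the fit. The transmitter genes that passed the filter stayed in the fit and in the adjustment, so adjusted p-values include genes that the rule used. All 7 were left out of every count of genes tested or called and are only described. The rule used Slc17a6 and Gad1, and the others mark the same classes. A log2 difference is glutamatergic minus inhibitory. Its SE is the absolute log2 difference divided by the square root of the quasi-likelihood F statistic, and is not an output of edgeR. Library measures were compared by exact permutation tests in SciPy 1.17.1. Genes were named if leading in p among separated genes (6 per direction, since none passed), among the 3 highest of a list, or Dbx1 or Reln, and others are said to be chosen after their values were seen. The rule, the 31 lists of 399 genes (1 absent from the files) and the tests were chosen with earlier results of these data known. Separated genes, their alternatives and the interaction with mouse line were added after the data were seen. Alternatives were other scalings, DESeq2 1.42.0, limma 3.58.1 with a pseudocount of 1, no filter, mouse line as covariate, counts under 1 FPKM set to 0, within-line fits and libraries left out. Depth was 21392146 to 36629393 fragments per library. Positions are from GENCODE M21. Some list genes are not reported here.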

Additional observations from a re-analysis of the deposited data

Results flagged for a closer look

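Of 33 groups of 4 values examined by Dixon's criterion, which asks whether 1 library lies far from the others, 5 held such a library, and chance flags about 1 in 20. All 33 groups were values of the 4 glutamatergic libraries. The inhibitory libraries were not examined in this way, so the flags say nothing on how the classes compare. Cadm1 was at 22.1 FPKM in sample 5, below 35.2 to 36.2 FPKM in the other 3 libraries, and Tmem255a at 35.5 FPKM in sample 8, below 63.0 to 66.7 FPKM. Scg2 was at 137.4 FPKM in sample 7, above 108 to 112 FPKM. Cdk5rap3 was at 7.14 FPKM in sample 5, above 0.00833 to 1.00 FPKM. The summed FPKM of the astrocyte markers was 1787 in sample 8, above 4.13 to 232 in samples 5, 6 and 7.

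Transmitter genes were also found in the libraries that met neither rule and so entered no comparison. In sample 2, Slc32a1 reached 5.95 FPKM and Slc17a6 reached 1.85 FPKM, beside a Gad1 value of 0.0144 FPKM. In sample 4, Gad2 reached 2.53 FPKM beside a Gad1 value of 0.00889 FPKM. The source of these fragments was not tested.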

How the results depend on the processing

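The count of 0 called genes in either direction held under RLE size factors, library totals alone, limma, no filter, mouse line as a covariate, counts under 1 FPKM set to 0, without samples 1 and 3, and with any 1 of the 7 libraries left out (lowest 0, highest 0). DESeq2 called 555 genes higher in the glutamatergic and 54 higher in the inhibitory class, and within CD-1 mice edgeR gave 1 gene, Gm18999, which was at 622.6 FPKM in sample 8, the lone glutamatergic library there and assumed to vary like the others, and at 0.0174, 0 and 0 FPKM in samples 5, 6 and 7. The cause of the difference between tools was not tested. No interaction of class with mouse line passed (0 genes, smallest adjusted p 0.225). Of genes at an unadjusted p under 0.05, 85.3% were higher in the glutamatergic class, against 62.5% under RLE, 94.0% under library totals, 71.2% under DESeq2, 90.7% under limma, 37.6% without the filter and 74.5% with mouse line, and the median log2 difference of all genes ran from -0.57 to 0.19 over the scalings.

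The 474 separated genes higher in the glutamatergic class became 303 at 5 FPKM, 1210 without samples 1 and 3, 3354 within CD-1 and 3517 within Dbx1;Ai148 mice, and 728 to 1540 with 1 library left out. The 99 in the other direction became 2233 without samples 1 and 3, 1785 within CD-1 and 2374 within Dbx1;Ai148 mice, and 142 to 602 with 1 library left out, with 204 without sample 8, 602 without sample 1, 436 without sample 3 and 411 without sample 10. Fewer libraries make it easier not to overlap. Of the 25 genes tested singly, all kept their direction in these settings, and 10 passed an adjusted p of 0.05, each under DESeq2 alone. All 25 were picked as separated, so the kept direction is largely fixed by that choice. Of the 24 list medians, 18 had the opposite sign under at least 1 setting and 6 kept it in all. No paired analysis was possible because sample numbers only name the neurons and no number is shared between the classes.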

Other observations

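The libraries that met neither rule shared part of both separated sets. Of the 474 genes higher in the glutamatergic class, 46.4%, 46.6% and 60.55% were at 1 FPKM or more in samples 2, 4 and 9, and of the 99 higher in the inhibitory class, 69.7%, 72.7% and 81.8%. Over all genes tested these libraries held 46.1%, 50.7% and 55.4% at that level. Sample 9 carried several genes of the glutamatergic side, with Cadm1 at 41.2 FPKM, Ust at 22.4 FPKM, Tmem255a at 21.9 FPKM, Tmem163 at 13.5 FPKM and Glrb at 119.7 FPKM, and lacked others, with Sv2b at 0.146 FPKM, Lhx5 at 0.0674 FPKM and Gda at 0.167 FPKM. Its Slc17a6 was at 0.495 FPKM. The summed FPKM of 12 cholinergic and aminergic markers was 1231 in sample 9, with 5 of them at 1 FPKM or more. The next highest sum was 26.49, in sample 10. Penk, at 290.4 FPKM or more in each glutamatergic library, was at 32.8, 14.0 and 1.94 FPKM in samples 2, 4 and 9.

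Some separated genes that no list held had wide gaps, and they were chosen after their values were seen. Nrn1, which encodes neuritin, a protein of neurite growth, was at 74.5, 67.2, 149.9 and 42.8 FPKM in samples 5, 6, 7 and 8 and at 0.291, 0.114 and 0 FPKM in samples 1, 3 and 10. Nptx2, a secreted pentraxin that clusters AMPA receptors, was at 6.21, 23.1, 31.0 and 26.0 FPKM against 0.0369, 0.0506 and 0.0129 FPKM. Adcy8, a calcium-stimulated adenylyl cyclase gene, was at 5.99, 6.67, 4.77 and 8.84 FPKM against 0.0172, 0 and 0.00804 FPKM. On the inhibitory side, Phlda1 was at 35.2, 2.08 and 2.38 FPKM in samples 1, 3 and 10 and at most at 0.461 FPKM in the glutamatergic class, and Adgrl2, a latrophilin gene, at 36.6, 17.3 and 25.9 FPKM against 0.0115, 0.0157, 0.085 and 10.1 FPKM.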
